A study of Mus musculus with 6 samples.

Results

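The genes described here encode proteins that hepatocytes secrete into plasma: components of complement, factors and inhibitors of blood coagulation and fibrinolysis, serpins, and the inter-alpha-inhibitor and fetuin proteins. They are a list of 50 symbols grouped by known function; the rule for membership uses no measured value, but the list was drawn up with earlier results of these data known. A gene was measured by the brightest of the probe sets that the platform annotation assigned to its symbol alone. Of the 50 genes, 48 had such a probe set and all 48 passed the filter on dim genes, among 9295 genes tested of 12393 with a probe set. C3, the central component of complement, and Cpb2, a carboxypeptidase that slows fibrinolysis, had no probe set with their symbol alone and were not analysed here.

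The cells came from untreated wild-type C57BL/6 mice aged 3 weeks. Freshly isolated liver cells took up a Hoechst DNA dye, a cell sorter separated a diploid from a tetraploid fraction, and RNA was extracted without culture. Each fraction was measured on 3 Affymetrix arrays. All 6 arrays share strain, age, stain and sort. The gate read DNA content, by which a tetraploid cell and a diploid cell that has copied its DNA but not divided cannot be told apart. The labels call the replicates biological and name no animals, so the spread behind each p-value is that of these samples and could be partly technical.

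Complement is a cascade of plasma proteases. It is started by recognition proteins such as mannose-binding lectins, is amplified through convertases that split C3, and ends in the membrane attack complex, which inserts into membranes. Coagulation is a second cascade that ends with thrombin cutting fibrinogen to fibrin, and plasmin later dissolves the clot. Serpins are inhibitors that trap such proteases, and most of these plasma proteins are made by hepatocytes.

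The hepatocyte label was checked against marker genes. The log2 intensity of albumin (Alb) was 15.56 ± 0.02 in diploid cells and 15.57 on each tetraploid array, where its probe set was the brightest. The liver transcription factor gene Hnf4a stood at 12.68 ± 0.12 and 12.66 ± 0.16 (SD, n = 3). The leukocyte gene Ptprc (4.24 ± 0.15 in diploid cells), the endothelial gene Pecam1 (4.12 ± 0.06) and the bile duct gene Epcam (4.92 ± 0.16) lay below the cutoff of 5.06 for dim genes. Other markers of these cell types lay above it: 10 of 12 for sinusoidal endothelium (Fcgr2b at a mean of 8.19 and Clec4g at 8.15), 2 of 5 for bile duct (Krt19 at 5.39 and Sox9 at 5.78) and 2 of 7 for leukocytes (Cd3e at 5.97 and S100a9 at 5.68). Array medians lay between 85.9 and 88.7 on the linear scale, and arrays correlated at 0.992 to 0.997 across probe sets. No other depth measure exists for an array, and the number of arrays limits the precision. The intensities had been equalised between arrays by the authors, so a difference compares a transcript with the rest of its own array, and fewer cells of a type and less RNA per cell cannot be told apart.

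Promoter sequences are shown for the 3 genes with the smallest p-values, Habp2, C9 and F10, and for the 3 fibrinogen chain genes, which had almost equal levels in both fractions. They are the RefSeq windows of assembly GRCm38.p6 from 250 bases before to 50 bases after the annotated start, written 5′ to 3′ along the gene. Capitals mark matches on either strand to the letters GTTAATNAT (HNF1, a homeodomain factor of liver), TTGCNNAA (C/EBP) and TATAAA (the core promoter box). A search for CAAAGTCCA (HNF4) found no match in these windows.
Habp2 (chr19:56287662-56287961, plus strand): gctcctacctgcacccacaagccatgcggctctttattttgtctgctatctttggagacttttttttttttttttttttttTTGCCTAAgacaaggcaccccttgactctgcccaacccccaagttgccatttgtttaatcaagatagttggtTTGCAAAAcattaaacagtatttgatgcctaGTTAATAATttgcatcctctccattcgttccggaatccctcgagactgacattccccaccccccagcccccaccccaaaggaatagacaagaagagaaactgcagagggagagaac
C9 (chr15:6445096-6445395, plus strand): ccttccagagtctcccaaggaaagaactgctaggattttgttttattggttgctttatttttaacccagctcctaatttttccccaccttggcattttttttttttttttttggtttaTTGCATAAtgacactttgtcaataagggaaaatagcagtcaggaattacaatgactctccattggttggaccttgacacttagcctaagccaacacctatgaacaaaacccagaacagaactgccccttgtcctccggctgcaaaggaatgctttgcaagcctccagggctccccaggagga
F10 (chr8:13037058-13037357, plus strand): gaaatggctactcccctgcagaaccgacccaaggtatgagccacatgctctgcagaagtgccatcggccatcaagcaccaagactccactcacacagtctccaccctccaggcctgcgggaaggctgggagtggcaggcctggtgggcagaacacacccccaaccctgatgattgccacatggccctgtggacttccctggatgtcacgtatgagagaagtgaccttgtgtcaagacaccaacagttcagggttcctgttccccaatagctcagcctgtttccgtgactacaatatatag
Fga (chr3:83025903-83026202, plus strand): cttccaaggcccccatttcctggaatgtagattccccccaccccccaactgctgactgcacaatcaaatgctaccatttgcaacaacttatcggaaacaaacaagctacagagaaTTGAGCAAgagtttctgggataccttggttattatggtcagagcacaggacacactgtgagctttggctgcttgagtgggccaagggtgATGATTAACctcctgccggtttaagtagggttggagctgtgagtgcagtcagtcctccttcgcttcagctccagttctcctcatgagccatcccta
Fgb (chr3:83049814-83050113, minus strand): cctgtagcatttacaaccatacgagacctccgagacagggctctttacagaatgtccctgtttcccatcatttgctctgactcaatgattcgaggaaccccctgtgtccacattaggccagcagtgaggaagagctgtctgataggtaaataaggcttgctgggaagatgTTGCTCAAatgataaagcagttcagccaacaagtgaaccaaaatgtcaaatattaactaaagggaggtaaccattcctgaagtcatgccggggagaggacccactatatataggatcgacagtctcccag
Fgg (chr3:83007474-83007773, plus strand): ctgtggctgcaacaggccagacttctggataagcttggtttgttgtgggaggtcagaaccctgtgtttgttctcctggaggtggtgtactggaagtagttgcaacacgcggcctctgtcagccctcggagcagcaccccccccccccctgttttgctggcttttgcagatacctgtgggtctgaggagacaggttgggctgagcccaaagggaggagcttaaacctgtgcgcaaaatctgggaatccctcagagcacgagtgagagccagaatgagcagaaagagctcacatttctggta

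The C/EBP letters occurred in 14 of the 40 members with a promoter in the RefSeq table (35%), against 10.8% of 27025 genes. Those for HNF1 occurred in 5 members (12.5%, against 0.836%), namely C4bp, F13b, Fga, Habp2 and Hgfac. The HNF1 letters had been shortened by 1 base after a first search, in which Fga had no match. The first base of the match lay at -66 in Habp2, -64 in C4bp, -54 in F13b, -46 in Fga and -8 in Hgfac, counted in bases from the start. TATAAA occurred in 6 members (15%, against 14.2%), and the HNF4 letters in 0 (against 0.477%). Matches for different motifs did not overlap in the windows shown. In these windows Habp2 held 2 matches to the C/EBP letters, C9, Fga and Fgb held 1 each, and F10 and Fgg had none for any motif searched. A match is a description of the sequence and was not tested as a binding site.

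Across the members, the fractions were close to each other. The log2 differences (tetraploid minus diploid) ran from -0.32 for C9 to 0.36 for Habp2, and 35 of 48 lay within 0.1, against 61.6% of all genes tested. Their median was -0.03, and over all genes tested it was -0.0064. On average 19 members were higher and 29 lower in tetraploid cells. The plot of cumulative shares shows the same values beside all genes.

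**Figure D1:**
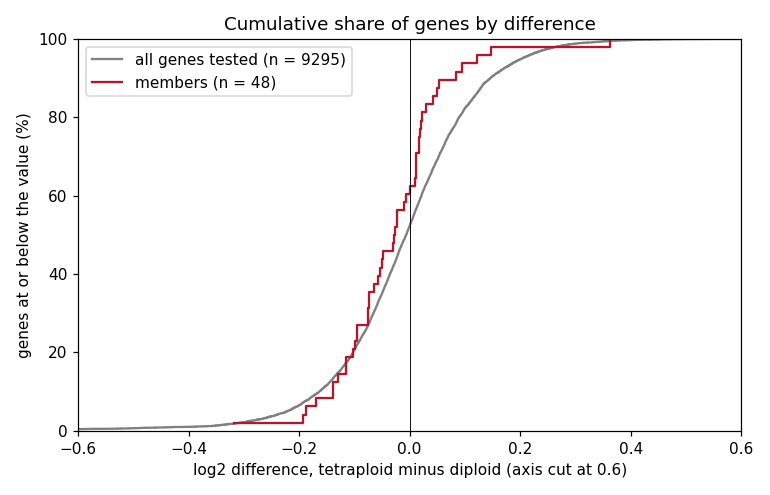
Cumulative share of genes (percent) by log2 difference between tetraploid and diploid hepatocytes, for the 48 members and for all 9295 genes tested, with the axis cut at 0.6. The members' curve is steeper around 0, with 46 of 48 members within 0.2 against 88.2% of all genes.

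By limma, with Benjamini-Hochberg adjustment over all genes tested, 0 members passed an adjusted p of 0.05, and 0 of 9295 genes did (0% in each direction). At an unadjusted p under 0.05 there were 3 members, 1 higher and 2 lower, which is 6.25% of members against 6.18% of all genes tested (2.32% higher and 3.85% lower). The share of members at that level was thus near that of all genes. For 10 members (20.8%) the values of the fractions did not overlap, against 12.3% of all genes. Of these, 9 were lower in tetraploid cells (18.8%, against 7.08%) and 1 was higher (against 5.22%). The count of 9 was 6 after quantile normalization (8.02% of all genes) and 6 with the mean over the probe sets of a gene (6.87%). In 8 of the 10 the gap between the fractions was under 0.05 log2. The others were Habp2, with a gap of 0.28, and F10, with 0.07.

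The members had small errors. The median SE of a member's difference was 0.071, against 0.095 over all genes, and the 95% interval of each of the 48 differences, taken 1 gene at a time, lay within a 1.5-fold change in either direction. Many of the probe sets sat near the upper end of the scale: 33 members ranked among the 1000 brightest of 22626 probe sets on every array, and 20 among the 500 brightest. There a difference may be compressed, and equalising the arrays leaves the brightest values little room, so these intervals describe the intensities as deposited.

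**Figure D2:**
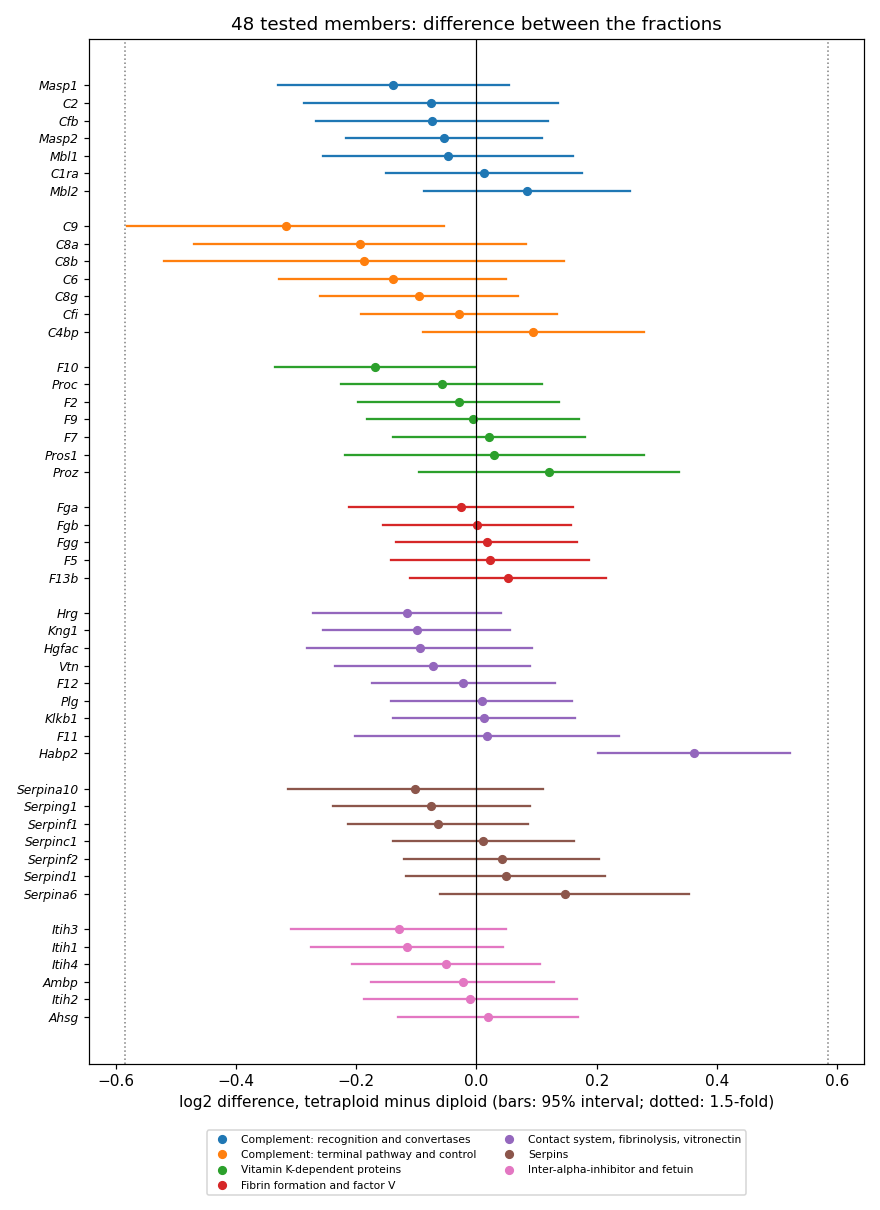
Log2 difference between tetraploid and diploid hepatocytes for the 48 tested members, by role; points are limma estimates, bars their 95% intervals (3 arrays per fraction), and dotted lines mark 1.5-fold. Habp2 at 0.36 is the highest and C9 at -0.32 the lowest, and all intervals lie inside the dotted lines.

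Complement recognition and activation came first in the cascade and showed differences between -0.14 and 0.08 for its 7 tested genes, 2 higher and 5 lower, with 0 at an unadjusted limma p under 0.05. Masp1 encodes a protease that binds mannose-binding lectin and starts the lectin pathway. It read 11.65, 11.66 and 11.54 on diploid replicates 1 to 3 and 11.45, 11.39 and 11.59 on tetraploid replicates 1 to 3. The fractions overlapped through tetraploid replicate 3, and the difference was -0.14 ± 0.08 (SE; limma adjusted p = 0.848). Its 4 other probe sets differed by 0.0078, -0.05, -0.15 and -0.07, the first with the opposite sign and the last below the cutoff for dim genes.

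Mbl2, a mannose-binding lectin, read 13.82, 13.87 and 13.78 in diploid cells and 13.88, 13.85 and 13.99 in tetraploid cells, with overlap. The other lectin gene of the pair, Mbl1, differed by -0.05 ± 0.09, and Mbl2 by 0.08 ± 0.07 (SE, n = 3 per fraction). Masp2, the protease that cleaves C4 and C2, differed by -0.05 ± 0.07, and its second probe set by -0.13. Cfb, the protease subunit of the alternative pathway convertase, read 12.45, 12.46 and 12.47 in diploid cells and 12.25, 12.40 and 12.50 in tetraploid cells. The diploid values spanned little and the tetraploid values lay on both sides of them, and the difference was -0.07 ± 0.08. Its chromosomal neighbour C2, which supplies the classical convertase, differed by -0.08 ± 0.09. C1ra, a protease of the first classical complex, differed by 0.01 ± 0.07. One further probe set shared by C1ra and its close copy C1rb was not used, and the probes for C1ra may also bind C1rb.

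The membrane attack complex genes include C9, C8a and C8b, the 3 lowest differences among the complement genes tested. The 5 members among them, C6, C8a, C8b, C8g and C9, all had a lower mean in tetraploid cells. Over all genes tested, 52.2% were lower. The 5 differences ran from -0.32 to -0.10, with a median of -0.19. Hc, which encodes C5 and is not a member, differed by -0.09 ± 0.08, with overlap. The subgroup of 5 was named after its values were seen, so its shared sign is no test. In it 0 genes passed the adjusted threshold. At an unadjusted limma p under 0.05 there was 1 (C9), where 6.18% of all genes tested were at that level. C9 forms the ring of the complex. It read 11.85, 12.04 and 11.74 on diploid replicates 1 to 3 and 11.50, 11.43 and 11.74 on tetraploid replicates 1 to 3. The highest tetraploid value lay 0.00027 below the lowest diploid value, so the fractions only just failed to overlap. The level was 1.25-fold higher in diploid cells, a difference of -0.32 ± 0.11 (SE; limma adjusted p = 0.765). Leaving out single arrays moved it between -0.41 and -0.24, and its unadjusted p was over 0.05 without diploid replicate 2, tetraploid replicate 1 or tetraploid replicate 2.

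C8a and C8b encode chains of the C8 protein, and the genes lie side by side. C8a read 12.36, 12.63 and 12.49 in diploid cells and 12.12, 12.29 and 12.50 in tetraploid cells. C8b, shown with its neighbour after its values were seen, read 10.87, 11.22 and 11.004 in diploid and 10.58, 10.88 and 11.06 in tetraploid cells. In both genes diploid replicate 2 was the highest array and tetraploid replicate 1 the lowest, and the fractions overlapped. They differed by -0.19 ± 0.12 and -0.19 ± 0.14 (SE), and by -0.10 and -0.06 without tetraploid replicate 1. C8b had the widest spread within the fractions of all members, a pooled SD of 0.21 against a median of 0.05 over the members.

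C8g, the lipocalin chain of the C8 protein, differed by -0.10 ± 0.07, with a gap of 0.00085 between the fractions. C6, at 5.26, 5.30 and 5.20 in diploid and 5.24, 5.05 and 5.05 in tetraploid cells, differed by -0.14 ± 0.08. Its mean of 5.19 lay just above the cutoff for dim genes, where differences are compressed. Of the regulators, C4bp, which helps to inactivate C4b, differed by 0.09 ± 0.08, and Cfi, the protease that degrades C3b and C4b, by -0.03 ± 0.07 (SE, n = 3 per fraction), both with fractions that overlapped.

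Vitamin K-dependent proteins carry carboxylated glutamates that bind calcium. Their 7 genes had a median of -0.0060 (3 higher, 4 lower). F10, whose product cuts prothrombin, read 12.96, 12.89 and 12.87 on diploid replicates 1 to 3 and 12.72, 12.69 and 12.80 on tetraploid replicates 1 to 3. Every tetraploid array lay below every diploid array. The difference was -0.17 ± 0.07 (SE; limma adjusted p = 0.801), a level 1.12-fold higher in diploid cells. Its unadjusted p was under 0.05 with all arrays and without tetraploid replicate 3, and over 0.05 without any other single array. The other probe sets for F10 gave -0.10 and -0.10, with fractions that overlapped.

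F10 lies between F7 and Proz on the chromosome. F7, the partner of tissue factor, differed by 0.02 ± 0.07, and Proz, a cofactor for the inhibition of activated F10, by 0.12 ± 0.09 (SE, n = 3 per fraction). Proz read 11.86, 12.09 and 11.89 in diploid and 12.12, 11.96 and 12.13 in tetraploid cells, with overlap through tetraploid replicate 2 and diploid replicate 2. Its second probe set differed by 0.16. There the fractions only just failed to overlap, with a lowest tetraploid value of 9.57 and a highest diploid value of 9.55.

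F2, which encodes prothrombin, read 14.38, 14.38 and 14.38 in diploid and 14.26, 14.37 and 14.42 in tetraploid cells, a difference of -0.03 ± 0.07. F9, the haemophilia B factor, read 11.89, 12.001 and 12.02 in diploid and 11.90, 12.03 and 11.96 in tetraploid cells, a difference of -0.0060 ± 0.075. Its 95% interval ran from -0.18 to 0.17. The anticoagulants Proc and Pros1 form an enzyme and cofactor pair that inactivates F5 and F8. Proc read 12.97, 12.98 and 12.98 in diploid and 12.85, 12.91 and 13.003 in tetraploid cells. Proc differed by -0.06 ± 0.07 and Pros1 by 0.03 ± 0.11, and for Pros1 the sign followed single arrays, at 0.13 without tetraploid replicate 1 and -0.05 without tetraploid replicate 3.

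Fibrinogen is assembled from the products of Fga, Fgb and Fgg, which lie next to each other. Their fractions were nearly equal. Fgb read 14.92, 15.00 and 14.96 in diploid and 14.96, 14.98 and 14.93 in tetraploid cells, a difference of 0.00017 ± 0.067 with a 95% interval from -0.16 to 0.16. Fgg read 14.86, 14.85 and 14.88 in diploid and 14.86, 14.91 and 14.88 in tetraploid cells, a difference of 0.02 ± 0.06. Both ranked between 16 and 27 in brightness on every array, so a difference could be compressed there.

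Fga, whose probe set ranked between 106 and 142, read 13.94, 14.09 and 14.10 in diploid and 13.94, 14.02 and 14.08 in tetraploid cells. In both fractions replicate 1 was the lowest, and the difference was -0.03 ± 0.08. F13b, the carrier subunit of the fibrin crosslinking enzyme, read 12.86, 12.99 and 12.95 in diploid and 12.99, 12.97 and 13.005 in tetraploid cells, a difference of 0.05 ± 0.07. F5, the cofactor of activated F10, read 12.63, 12.72 and 12.70 in diploid and 12.68, 12.66 and 12.77 in tetraploid cells. It differed by 0.02 ± 0.07, and its second probe set by 0.03.

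Habp2 had the smallest p of all members. It encodes a plasma serine protease that binds hyaluronan and can activate F7. The probe set used read 8.44, 8.53 and 8.44 on diploid replicates 1 to 3 and 8.81, 8.81 and 8.86 on tetraploid replicates 1 to 3. All tetraploid arrays lay above all diploid arrays, with a level 1.28-fold higher, a difference of 0.36 ± 0.07 (SE), a 95% interval from 0.20 to 0.52 and a limma adjusted p = 0.277. Leaving out single arrays gave between 0.35 and 0.39. A second probe set for Habp2, made for 1 transcript, read 7.80, 7.66 and 7.63 in diploid and 7.83, 7.73 and 7.79 in tetraploid cells. There the fractions overlapped and the difference was 0.09. The probe set used is of a kind that can match several transcripts.

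The other genes of the contact system and of fibrinolysis lay between -0.12 and 0.02. Hrg, a histidine-rich glycoprotein that binds plasminogen and heparin, read 13.94, 13.90 and 13.94 in diploid and 13.77, 13.81 and 13.86 in tetraploid cells. Kng1, the precursor of bradykinin, read 14.44, 14.42 and 14.44 in diploid and 14.28, 14.34 and 14.38 in tetraploid cells. In both genes each tetraploid array was below each diploid array by a gap of 0.04, and the differences were -0.12 ± 0.07 and -0.10 ± 0.07 (SE; limma adjusted p = 0.845 and 0.860). The second probe set for Kng1 differed by -0.03, and its close copy Kng2 may bind the same probes.

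Hrg and Kng1 lie in a cluster with Ahsg and Masp1, whose differences were 0.02 and -0.14. Vtn, which stabilises the plasminogen activator inhibitor, differed by -0.07 ± 0.07 with a gap of 0.0042. The second probe set for Vtn differed by -0.06, with fractions that overlapped. Plg, the precursor of plasmin, read 14.64, 14.64 and 14.63 in diploid and 14.62, 14.66 and 14.65 in tetraploid cells, a difference of 0.0090 ± 0.064. The contact proteases F11 and F12 differed by 0.02 ± 0.09 and -0.02 ± 0.07, Klkb1, which encodes prekallikrein and neighbours F11, by 0.01 ± 0.06, and Hgfac, the activator of hepatocyte growth factor, by -0.09 ± 0.08 (SE, n = 3 per fraction).

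Of the 7 serpin genes 4 were higher and 3 lower on average, and 0 had an unadjusted limma p under 0.05. Serpina6, which encodes the carrier of corticosteroids in plasma, read 12.43, 12.36 and 12.21 in diploid and 12.38, 12.48 and 12.57 in tetraploid cells. Only tetraploid replicate 1 lay within the diploid range, and the difference was 0.15 ± 0.09. Its neighbour Serpina10, the inhibitor that works with Proz, read 12.79, 12.79 and 12.76 in diploid and 12.56, 12.63 and 12.85 in tetraploid cells. The tetraploid arrays were spread on both sides of the diploid ones, and the difference was -0.10 ± 0.09, or -0.19 without tetraploid replicate 3 and -0.04 without tetraploid replicate 1.

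Serping1, the inhibitor of the first complement complex and of kallikrein, read 13.12, 13.13 and 13.11 in diploid and 12.96, 13.08 and 13.09 in tetraploid cells. The gap was 0.02 and the difference -0.08 ± 0.07. Serpinf1, an antiangiogenic serpin that inhibits no protease, differed by -0.06 ± 0.06 with a gap of 0.04, and its second probe set by -0.01. Serpinc1, antithrombin, read 14.73, 14.73 and 14.74 in diploid and 14.71, 14.76 and 14.76 in tetraploid cells, a difference of 0.01 ± 0.06. Heparin cofactor Serpind1 differed by 0.05 ± 0.07, and Serpinf2, the main inhibitor of plasmin, by 0.04 ± 0.07 (SE, n = 3 per fraction).

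The inter-alpha-inhibitor family joins heavy chains from the Itih genes to bikunin from Ambp, and the complexes bind hyaluronan. Of the 6 genes of this group 5 were lower and 1 higher. Itih1, Itih3 and Itih4 are neighbours, and all 3 were lower on average. Itih3 read 13.98, 14.06 and 14.09 in diploid and 13.83, 13.91 and 14.00 in tetraploid cells, with overlap, and differed by -0.13 ± 0.08. Itih1 read 12.48, 12.45 and 12.41 in diploid and 12.35, 12.27 and 12.37 in tetraploid cells. Its fractions did not overlap, by a gap of 0.04, and the difference was -0.12 ± 0.07 (SE; limma adjusted p = 0.848).

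Itih4 read 14.18, 14.20 and 14.17 in diploid and 14.10, 14.10 and 14.19 in tetraploid cells, a difference of -0.05 ± 0.07. Itih2, which is not in that cluster, differed by -0.01 ± 0.08, and -0.06 or 0.04 when tetraploid replicate 3 or replicate 1 was left out. Ambp read 14.72, 14.72 and 14.77 in diploid and 14.71, 14.73 and 14.70 in tetraploid cells, a difference of -0.02 ± 0.07. Ahsg, fetuin-A, an inhibitor of calcification, read 14.95, 14.97 and 14.93 in diploid and 14.96, 14.96 and 14.99 in tetraploid cells, a difference of 0.02 ± 0.06, with a brightness rank between 16 and 20.

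The members also varied between arrays of the same fraction. Tetraploid replicate 3 was above tetraploid replicate 1 for 42 of 48 members, with a median gap of 0.09, where 51.4% of all genes tested were higher on replicate 3 and the median gap was 0.0054. Tetraploid replicate 1 held the lowest of the 6 values for 21 members (43.8%, against 17.8% of all genes tested). Tetraploid replicate 3 held the highest for 16 (33.3%, against 15.7%). Among diploid arrays, replicate 1 was the highest for 12.5% of members, against 27.3% of all genes tested. Without tetraploid replicate 1 the members' median difference was -0.0078, and without tetraploid replicate 3 it was -0.06. Without tetraploid replicate 3, the tetraploid values of 18 of 48 members all lay below the diploid ones, against 14% of all genes tested. This was the highest such count over the single arrays left out, and it was added after seeing the data. With all 6 arrays the count was 9, against 7.08% of all genes tested. Fewer arrays overlap less often, and the array left out held the highest value for 16 members.

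**Figure D3:**
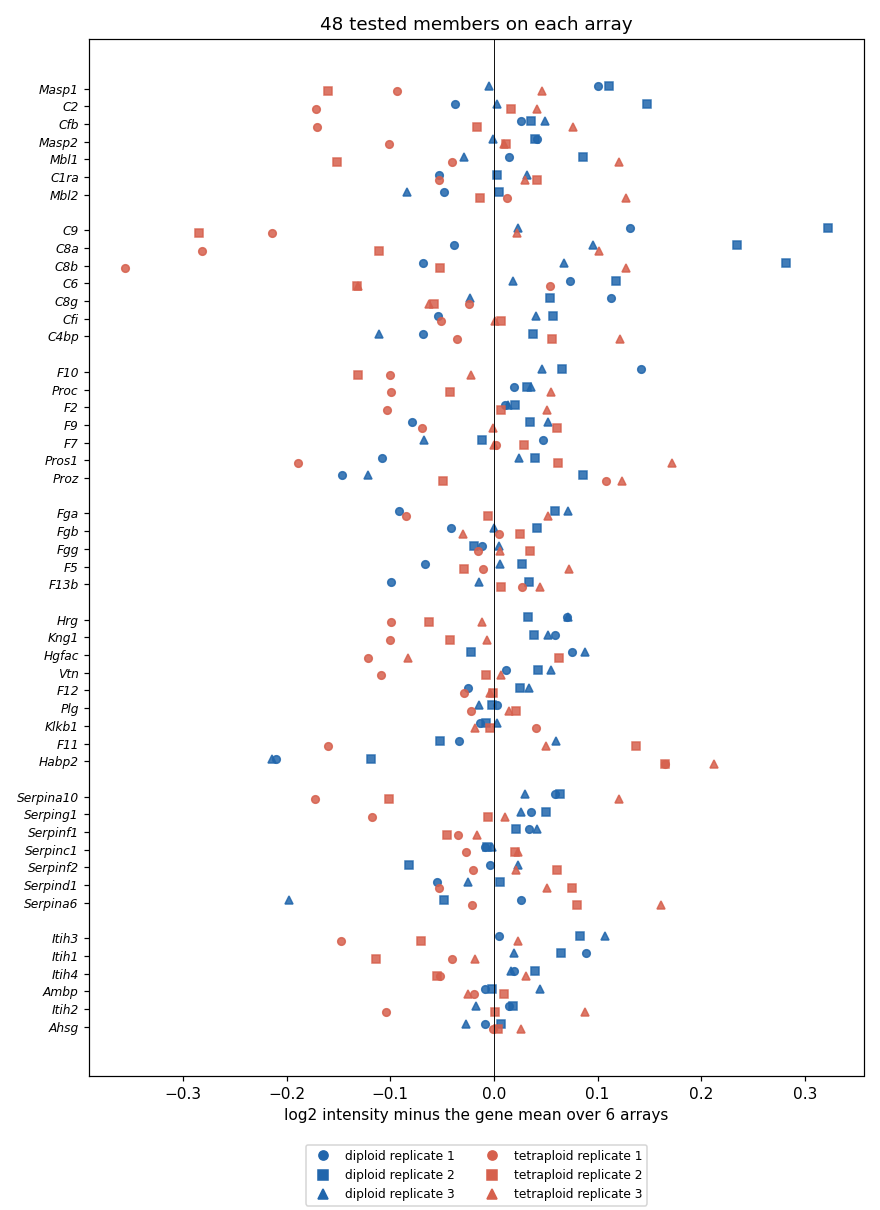
Log2 intensity of each tested member on each of the 6 arrays, centred on the average of the gene; blue marks are diploid and red marks tetraploid arrays, with a shape per replicate. Red circles (tetraploid replicate 1) hold the lowest value for 21 of 48 members and red triangles (tetraploid replicate 3) the highest for 16.

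**Figure D4:**
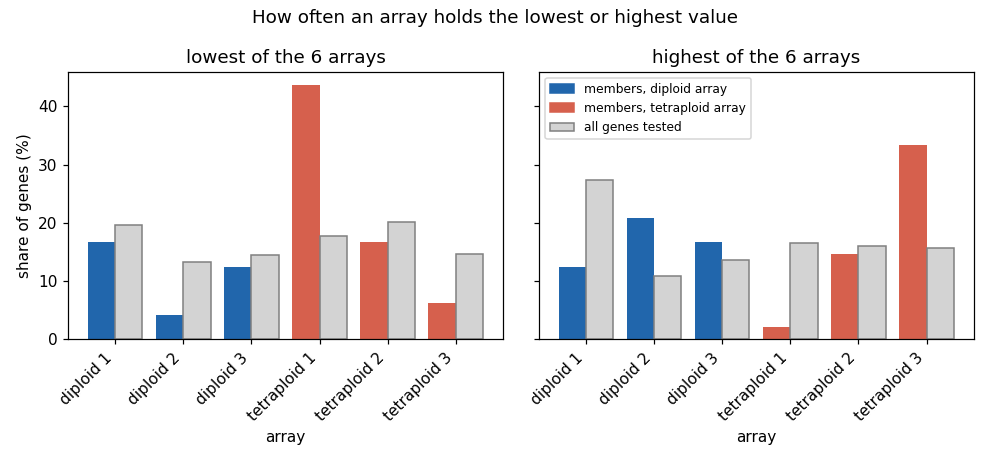
Share of genes (percent) for which an array held the lowest (left) or highest (right) of the 6 values, for the 48 members (coloured) and all 9295 genes tested (grey). Tetraploid replicate 1 was lowest for 43.8% of members and 17.8% of all genes.

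Neighbouring genes were compared by position in the RefSeq table of assembly GRCm38.p6. A total of 23 members fell into 9 clusters, each with neighbours less than 500 kb apart. In 4 of the clusters all members had the same sign: lower for Itih4 with Itih3 and Itih1, for Cfb with C2 and for C8b with C8a, and higher for F11 with Klkb1. F11 and Klkb1 differed by only 0.02 and 0.01, and the sign of each changed when a single array was left out. The members of every other cluster went to both sides, among them F7, F10 and Proz, and Serpina10 with Serpina6. Agreement of neighbours in sign was not tested.

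Further genes of the same pathways were counted from lists written with earlier results of these data known. Of 93 such genes, 65 had a probe set and 49 were tested, and their median difference was -0.02 (21 higher, 28 lower). At an unadjusted limma p under 0.05 there were 0 higher and 3 lower (6.12%, against 6.18% of all genes tested), and 0 passed an adjusted p of 0.05. The 3 lower genes included Tfpi, the inhibitor of the tissue factor pathway, at -0.17 ± 0.07, and Itih5, a further heavy chain, at -0.37 ± 0.15. The last was Spint1, an inhibitor of hepatocyte growth factor activator, at -0.19 ± 0.08 (SE, n = 3 per fraction). The mean of Spint1, 5.28, lay just above the cutoff of 5.06 for dim genes. Hc, the C5 component that starts the terminal pathway, differed by -0.09 ± 0.08, F8, the haemophilia A factor, by 0.08 ± 0.09, and F3, tissue factor, by 0.18 ± 0.26. Vwf and F13a1, known mainly from endothelial cells and from platelets or macrophages, were below the cutoff for dim genes, with diploid levels of 4.09 ± 0.14 and 4.27 ± 0.18 (SD, n = 3).

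Other secreted liver proteins gave similar medians. The 21 tested acute phase genes had a median of -0.05 (6 higher, 15 lower), among them Orm1, an acute phase glycoprotein, at -0.33 ± 0.08 and the serum amyloid gene Saa1 at -0.36 ± 0.14. The 13 tested apolipoprotein genes had a median of -0.02 (4 higher, 9 lower), and Apoa4 differed by -0.30 ± 0.07 (SE, n = 3 per fraction). By limma 0 genes of either list passed an adjusted p of 0.05, and 2 of each, all lower, had an unadjusted p under 0.05. That is 9.52% of the acute phase and 15.4% of the apolipoprotein genes, against 6.18% of all genes tested (3.85% lower). Of the apolipoprotein genes at that level, Apoa4 is also among the periportal genes counted below.

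Marker lists of cell states and cell types are given by the summed linear intensity of their probe sets. For 18 genes of S phase it lay between 12530 and 17800 on diploid and between 6692 and 8979 on tetraploid arrays. For 12 periportal genes the ranges were 101700 to 113900 and 91110 to 102200, and for 15 pericentral genes 84880 to 86920 and 91110 to 98120. For 12 markers of sinusoidal endothelium they were 1164 to 1266 and 1234 to 1473, with 8 of 10 tested genes higher in tetraploid cells, and Pecam1 and Tek dim. For 8 platelet and megakaryocyte markers they were 553.7 to 561.4 and 508.4 to 537.3, with Ppbp and Gp5 dim, and for 7 leukocyte markers 236.7 to 250.3 and 217 to 222.2, with 5 of the 7 dim. Sums for Kupffer cells (10 genes, 459.9 to 515.6 and 414 to 489.3), stellate cells (9 genes, 788.9 to 877.4 and 849.5 to 889.1), bile duct cells (5 genes, 165.1 to 187.8 and 165.4 to 167.3) and hepatocytes (8 genes, 174500 to 186000 and 175200 to 184600) overlapped between the fractions, as did the periportal and endothelial sums. Gene by gene, 11 of 12 periportal genes were lower in tetraploid cells, 8 of them without overlap (66.7%, against 12.3% of all genes tested). At an unadjusted limma p under 0.05 there were 7 (58.3%, against 6.18%). Of 15 pericentral genes 13 were higher, 6 without overlap (40%) and 4 at that level (26.7%), and all 17 tested S phase genes were lower without overlap and at that level. By limma 0 genes of these 3 lists passed an adjusted p of 0.05. Of the 10 tested markers of sinusoidal endothelium, 3 higher and 0 lower had an unadjusted limma p under 0.05 (30%, against 6.18% of all genes tested). For 2 of the 10, both higher, the fractions did not overlap (20%, against 12.3%), and 0 passed an adjusted p of 0.05. Among the cell type markers, Vsig4 and Cd68 (Kupffer), Lrat and Col1a1 (stellate) and Krt7 and Epcam (bile duct) were dim. Others were above the cutoff: 6 of 10 for Kupffer cells (Csf1r at a mean of 6.82) and 5 of 9 for stellate cells (Reln at 8.83). The part of these genes and cells in the members' differences was not tested.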

How the data were processed

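Total RNA from 3 diploid and 3 tetraploid hepatocyte samples was measured on Affymetrix arrays. The table deposited by the authors gives linear intensity values for each probe set, and RMA (background correction, equalised arrays, probe summary) is named in the submitters' processing notes; its version is not given in the sources used here. Groups and replicate numbers came from the sample titles.

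All values were taken to log2. The 64 control probe sets among 22690 were dropped; 20380 had 1 gene symbol, 691 several and 1555 none. Each gene was measured by its brightest probe set with 1 symbol, and the dimmest 25% of genes (3098, mean log2 below 5.06) were left out. All 48 measured members matched RefSeq (GRCm38.p6) by Entrez identifier with the same symbol. Fractions were compared with limma 3.58.1 under R 4.3.3 (two-sided, lmFit then eBayes, ploidy only, Benjamini-Hochberg over 9295 genes, threshold 0.05). The fit was tested on simulated data with changes of 1.5-fold or more. These are larger than any member's difference, so that test does not cover differences of the size found here. Differences are tetraploid minus diploid with the limma SE, and levels are means with the SD. Neighbours and promoters came from RefSeq. The HNF1 letters were shortened by 1 base after a first search, which had no match in Fga.

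All 50 members could be named. Values on every array are given for the 3 smallest p-values of each role group and for fixed reference genes, and other lists give genes among their 4 smallest p-values or fixed references. The members and lists were chosen with earlier results of these data known. No pairing was used, since the labels do not tie replicate numbers to animals or batches. A total of 16 alternatives covered the dim filter, probe set choice, an added constant, normalization, the prior, array weights, a replicate block and each array left out.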

Additional observations from a re-analysis of the deposited data

How the results depend on the processing

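The alternatives left 34 of 48 members with the same sign throughout, and the 14 that changed sign differed by at most 0.05 in size. No member passed an adjusted limma p of 0.05 under any of the 16 alternatives, where the smallest was 0.218. Over all genes, 9 passed with the replicate block, and between 0 and 1 when single arrays were left out. Members at an unadjusted limma p under 0.05 numbered 3, where 6.18% of all genes were at that level. With probe sets made for 1 transcript they numbered 1, against 6.52% of all genes, and Habp2 differed by 0.09. With the replicate block, for which the labels give only shared numbers, they numbered 1. With the trend and robust prior they numbered 6. The shares of all genes under the block and the prior are not given here, so both counts are not read as results about the members. Members at that level numbered between 1 and 4 when single arrays were left out. Genes at that level numbered 574 of all tested, 369 with the lowest 50% left out, where fewer genes were tested, and between 380 and 641 when single arrays were left out. The members lower without overlap numbered 9 (7.08% of all genes), 6 after quantile normalization (8.02%) and 6 with the mean over probe sets (6.87%). They numbered between 10 and 18 when single arrays were left out, against 9.79% to 14% of all genes, since fewer arrays overlap less often; these counts were added after seeing the data. Deviations from the fraction means correlated at 0.57 between the samples numbered 1, and at -0.20 and -0.20 between those numbered 2 and 3. Diploid replicate 3 correlated best with tetraploid replicate 2 (0.69) and diploid replicate 2 with tetraploid replicate 3 (0.38). These correlations cannot settle whether equal numbers mark a shared animal, and no fit with other pairs was made. The members' median difference lay between -0.06 and -0.0078 over the arrays left out. Habp2 differed by 0.23 as the mean of its probe sets. The cause of these changes was otherwise not tested. Signal near the array background limits C6, and signal near the upper end limits the brightest members.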
